A study of Mus musculus with 16 samples.

Results

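The flavin-containing monooxygenases are a small family of enzymes encoded by the Fmo genes. Fmo1, Fmo2, Fmo4 and Fmo5 are described here, 4 of the 21804 genes in the deposited expression table, taken by matching Ensembl identifiers to these symbols. Fmo2 was singled out because its difference between genotypes in cortex passed the test across all genes in earlier work on these data. The values of Fmo2 in cortex are therefore given as a description with no test, and Fmo1, Fmo4 and Fmo5 were added as its relatives.

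The study sequenced polyA-selected RNA from brain tissue of C57BL/6 mice aged 4 months that carried the retention allele of Pdgfb. Pdgfb encodes the growth factor that recruits pericytes to brain vessels, and the retention allele lacks the motif that holds the factor near the cells that secrete it. The groups were Pdgfb ret/wt cortex, Pdgfb ret/ret cortex, Pdgfb ret/wt thalamus and Pdgfb ret/ret thalamus, with 4 animals of each genotype and both regions taken from every animal. The ret/wt controls also carried 1 retention allele, and no wild-type animals were analysed here. The ret/ret thalamus pieces were calcifications cut out under a fluorescence stereomicroscope, and the same region was taken from controls, so genotype and dissection cannot be told apart in the thalamus. The cortex of neither genotype is calcified, per the study's design text.

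The 16 libraries held 13415438 to 29135220 counts each, so that 3 counts, taken as the limit of detection, equal 0.103 to 0.224 CPM, the unit of level used here, in which a gene's count is divided by its library's effective total. This limit covers counting error only, since duplicated fragments are not independent molecules. The regions matched their labels by neuron markers. The summed CPM of 5 cortical neuron markers was 136 to 507 in cortex and 31.3 to 75.9 in thalamus. That of 5 thalamic neuron markers was 237 to 2101 in thalamus, 35.7 to 59.0 in ret/wt cortex and 56.0 to 93.7 in ret/ret cortex. Of these 5, 4 were tested between genotypes in cortex. All 4 were higher in ret/ret, with a median log2 fold change of 0.86, and none passed the test across all genes. Cerebellum markers stood out in a pair of cortex libraries, with sums of 834 CPM (ret/wt replicate 3) and 2385 CPM (ret/ret replicate 2) where the remaining 6 had 8.80 to 38.4. The same 2 animals were those with reads from the Y-linked gene Ddx3y, at 55.2 CPM or more against at most 0.219 elsewhere. For choroid plexus markers the sum was 1162 CPM in replicate 4 of ret/wt cortex, where the remaining cortex samples had 14.3 to 75.1.

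Flavin monooxygenases bind FAD and use NADPH and molecular oxygen to add an oxygen atom to nitrogen and sulphur atoms of small molecules, among them drugs, amines and thiols. Most of their known work is in liver, kidney and lung. Fmo2 is the main form in the lung of many mammals, Fmo1 is abundant in mouse kidney and liver and oxidises hypotaurine to taurine, Fmo5 prefers carbonyl substrates, and Fmo4 is the least studied of these enzymes.

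The start of each member's coding sequence is shown because the family shares a fold and the RNA of related genes can be confused in counting. Each line gives the first 60 coding bases from the start codon, read 5′ to 3′ from the GENCODE M21 transcripts. The capitals mark the 18 bases that encode the first G-x-G-x-x-G stretch, the glycine-rich loop that binds FAD.
Fmo2: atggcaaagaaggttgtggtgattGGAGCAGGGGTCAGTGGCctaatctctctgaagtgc
Fmo1: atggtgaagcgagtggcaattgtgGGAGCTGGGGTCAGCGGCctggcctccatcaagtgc
Fmo4: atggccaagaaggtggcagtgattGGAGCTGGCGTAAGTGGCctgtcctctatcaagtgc
Fmo5: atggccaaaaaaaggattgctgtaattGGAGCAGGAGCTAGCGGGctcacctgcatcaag

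The stretch began at codon 9 in Fmo1, Fmo2 and Fmo4 and at codon 10 in Fmo5. Within these 60 bases Fmo4 differed from Fmo2 at 12 positions and Fmo1 at 20. Over the whole coding sequence Fmo2 was 62.0% identical to Fmo1, 63.6% to Fmo4 and 63.0% to Fmo5. No run of 31 bases in the exons of any of the 4 members was found in another gene of the family. For Fmo2, 2 of its 5630 runs of 31 bases (0.0355%) occurred in any other gene, for Fmo5 0.473%, for Fmo4 0 of 3698 and for Fmo1 7.95%. The share of sequence through which the reads of Fmo2 could be confused with another gene was small at this run length, and none of it led to a relative.

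On GRCm38, Fmo2 lies on the minus strand of chromosome 1 at chr1:162874317-162898726. Fmo1 (chr1:162829561-162866610) and Fmo4 (chr1:162793188-162813972) lie next to it on the same strand. Fmo5 lies apart from this cluster, on the plus strand of chromosome 3 at chr3:97628804-97655282. All 4 are protein-coding genes.

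Fmo2 was the member with the widest difference between genotypes. In ret/wt cortex replicates 1 to 4 its level was 2.20, 1.90, 2.51 and 3.37 CPM, and in ret/ret cortex it was 19.5, 16.5, 10.7 and 16.1 CPM. Every ret/ret cortex library lay above every ret/wt cortex library, and the lowest ret/ret value was well clear of the highest control. The counts behind these levels were 26 to 62 in ret/wt cortex and 247 to 378 in ret/ret cortex. The log2 fold change of ret/ret over ret/wt in cortex was 2.66 ± 0.29 (SE), a 6.32-fold difference in level. It was 2.63 without the 2 animals with Y-linked reads and 2.84 without ret/wt cortex replicate 4. This is the value that chose the gene, so nothing is read from it. In the whole cortex comparison the quasi-likelihood test of edgeR called 3 of 14288 genes (0.021%) at the threshold of 0.05 on Benjamini-Hochberg adjusted p-values, and 538 (3.77%) had an unadjusted p under 0.05. In 331 genes (2.32%) the 2 genotypes did not overlap, with ret/ret higher in 226 of them (1.58% of all tested).

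The thalamus libraries came from the same animals but took no part in singling Fmo2 out. Its level there was 1.94, 2.77, 3.35 and 5.81 CPM in ret/wt replicates 1 to 4, and 16.5, 21.1, 6.01 and 11.2 CPM in ret/ret. The groups did not overlap in the thalamus either, but ret/ret replicate 3 at 6.01 CPM lay just above the highest control, replicate 4. The counts were 45 to 90 in ret/wt and 124 to 473 in ret/ret. The log2 fold change was 2.01 ± 0.46 (SE), with a 95% interval from 0.98 to 3.04, and the unadjusted p was 0.0014 (edgeR quasi-likelihood). Across the 14767 genes tested in thalamus the adjusted p of Fmo2 was 0.729 after Benjamini-Hochberg adjustment, so the difference did not pass the test. No gene did so in thalamus (0 of 14767, 0%), where 581 genes (3.93%) had an unadjusted p under 0.05 and 403 (2.73%) had groups that did not overlap, 251 of them (1.7% of all tested) with ret/ret higher. DESeq2 gave Fmo2 the same log2 fold change of 2.01 with an adjusted p of 0.0105, and called 37 genes. Without the 2 animals with Y-linked reads the log2 fold change was 1.71.

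Fmo5, the member on another chromosome, had the second largest genotype difference of the members in both regions, by point estimate. Its level was 4.55, 4.09, 4.22 and 4.29 CPM in ret/wt cortex and 10.02, 8.29, 6.43 and 7.49 CPM in ret/ret cortex. The 4 controls were within a narrow band and all 4 ret/ret libraries lay above it. Its log2 fold change was 0.93 ± 0.24 (SE), a 1.90-fold difference, with a 95% interval from 0.39 to 1.46. With an unadjusted p of 0.00317, Fmo5 had an adjusted p of 0.728 (edgeR quasi-likelihood, Benjamini-Hochberg), short of the threshold. In thalamus Fmo5 was at 4.88, 9.21, 5.44 and 6.20 CPM in ret/wt and at 18.9, 6.12, 7.66 and 9.96 CPM in ret/ret. The highest value was that of ret/ret replicate 1, while ret/ret replicates 2 and 3 fell within the range of the controls. For the thalamus the log2 fold change was 0.77 ± 0.39 (SE), with an unadjusted p of 0.0734 and an adjusted p of 0.9998 (edgeR quasi-likelihood, Benjamini-Hochberg). Without ret/ret thalamus replicate 1 it was 0.32.

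Fmo1, the nearest expressed relative of Fmo2 on chromosome 1, overlapped between genotypes in both regions. It was at 6.99, 7.82, 5.94 and 8.09 CPM in ret/wt cortex and at 12.9, 6.67, 6.43 and 10.5 CPM in ret/ret cortex. Only ret/ret cortex replicates 1 and 4 lay above the controls. The log2 fold change in cortex was 0.35 ± 0.28 (SE), with a 95% interval from -0.28 to 0.99, and the adjusted p was 0.999 (edgeR quasi-likelihood, Benjamini-Hochberg). Without ret/ret cortex replicate 1 it was 0.14. In thalamus Fmo1 was at 6.00, 13.1, 2.87 and 10.6 CPM in ret/wt and at 11.5, 17.4, 7.86 and 13.6 CPM in ret/ret. The controls were widely spread, and ret/ret replicates 1 and 3 lay inside their range. There the log2 fold change was 0.66 ± 0.44 (SE), with a 95% interval from -0.32 to 1.64 and an adjusted p of 0.9998 (edgeR quasi-likelihood, Benjamini-Hochberg). Without the 2 animals with Y-linked reads it was 0.19.

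Fmo4 was at the edge of detection and did not pass the filter on low counts, so 3 of the 4 members were tested. Its highest level was 0.388 CPM, from 8 counts in ret/ret thalamus replicate 3, and 7 of the 16 libraries held no count. Fmo9 had 1 count in ret/wt cortex replicate 2 and none in the other libraries. Fmo6 was not analysed here.

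**Figure D1:**
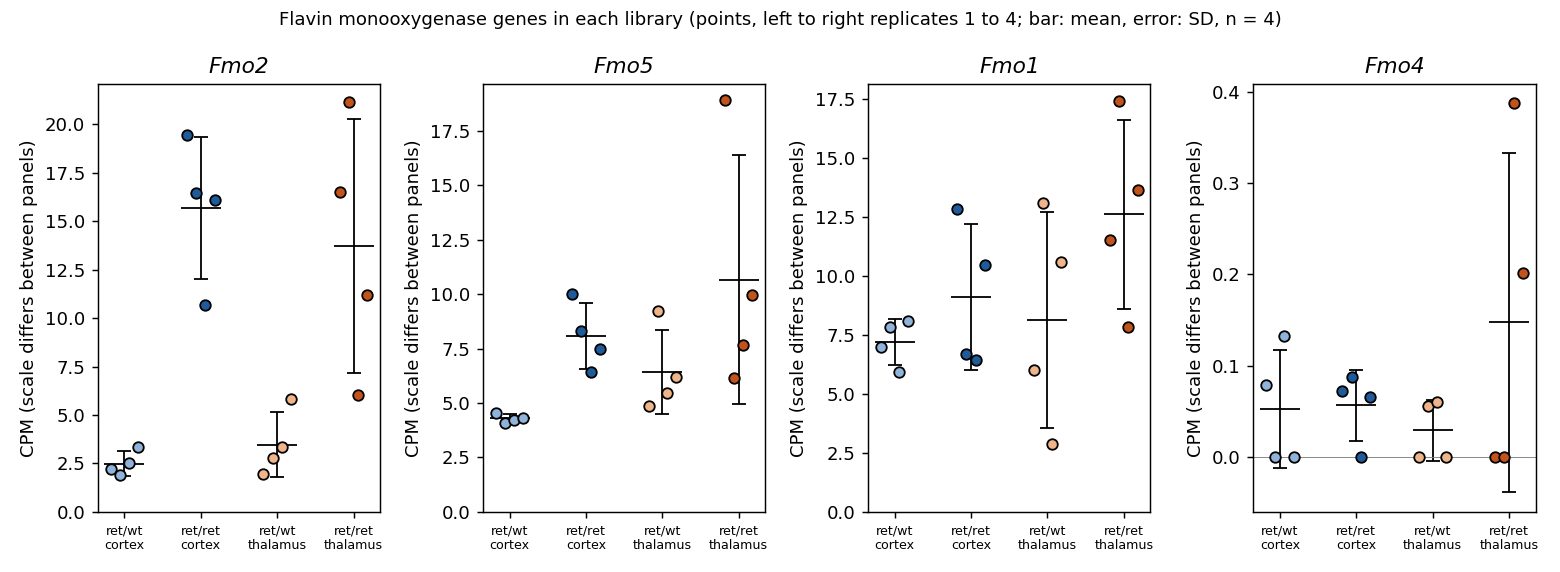
Level in CPM (y axis, a separate scale in each panel) of Fmo2, Fmo5, Fmo1 and Fmo4 in the 4 groups (x axis). Points are libraries, with replicates 1 to 4 from left to right, horizontal bars are group means and error bars are the SD (n = 4). Fmo2 lies at 10.7 to 19.5 CPM in ret/ret cortex against 1.90 to 3.37 in ret/wt cortex, and Fmo4 stays below 0.4 CPM.

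The levels of different genes can be compared only per length of transcript, so the CPM was divided by the length of the merged exons in kilobases. The order of the members by mean differed between genotypes on this scale. In cortex that order rests on the Fmo2 values that singled the gene out. In ret/wt cortex Fmo1 had the highest level at 1.14 ± 0.15 CPM per kb (SD, n = 4), followed by Fmo5 at 0.756 ± 0.034 (SD, n = 4) and Fmo2 at 0.444 ± 0.113 (SD, n = 4). On this scale the libraries of these 3 genes did not overlap in ret/wt cortex. In ret/ret cortex Fmo2 was the highest at 2.79 ± 0.65 CPM per kb (SD, n = 4), while Fmo1 at 1.44 ± 0.49 and Fmo5 at 1.42 ± 0.27 (SD, n = 4 each) lay within each other's spread. The ret/wt thalamus had Fmo1 at 1.29 ± 0.73, Fmo5 at 1.13 ± 0.34 and Fmo2 at 0.619 ± 0.297 CPM per kb (SD, n = 4 each), where Fmo1 and Fmo5 were within their spread. In ret/ret thalamus Fmo2 at 2.45 ± 1.17, Fmo1 at 2.001 ± 0.64 and Fmo5 at 1.88 ± 1.01 CPM per kb (SD, n = 4 each) were all within their spread.

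The order rests in part on the length used. With the mean transcript length in place of the merged exons, Fmo1 and Fmo2 had 6.22 and 8.86 CPM per kb in ret/ret cortex, and 8.61 and 7.75 in ret/ret thalamus, so their order in the thalamus turned. On that scale Fmo2 (1.07 to 1.90 CPM per kb) and Fmo5 (1.75 to 1.95) overlapped in ret/wt cortex, while Fmo1 (4.39 to 8.78) and Fmo5 (2.75 to 4.29) were apart in ret/ret cortex. Fmo4 was at 0.0397 CPM per kb or less on average in every group on the merged-exon scale.

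The interaction of genotype and region is the log2 fold change in thalamus minus that in cortex. For Fmo2 it was -0.66 ± 0.54 (SE), given with no test because it subtracts the cortex difference that singled the gene out. For Fmo5 the interaction was -0.18 ± 0.45 (SE) and for Fmo1 0.30 ± 0.54 (SE), with unadjusted p-values of 0.698 and 0.592 in the quasi-likelihood test of edgeR, which called 0 of 15286 genes (0%) after adjustment and had 245 (1.6%) at an unadjusted p under 0.05. These intervals are wide: that of Fmo1 ran from -0.86 to 1.45 and that of Fmo5 from -1.12 to 0.77.

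Region alone moved many genes past the threshold, but neither Fmo1 nor Fmo5, while Fmo2 was not tested because its cortex libraries singled it out. In ret/wt animals 1813 of 14442 genes (12.6%) differed between thalamus and cortex at an adjusted p under 0.05, and in ret/ret animals 1398 of 14715 (9.5%). The log2 fold change of thalamus over cortex in ret/wt was 0.49 ± 0.41 (SE) for Fmo2, and 0.10 without ret/wt thalamus replicate 4. For Fmo1 it was 0.19 ± 0.42 (SE) and for Fmo5 0.60 ± 0.29 (SE), with adjusted p-values of 0.813 and 0.215 (edgeR quasi-likelihood, Benjamini-Hochberg). Fmo5 was the member whose ret/wt regions did not overlap, with the thalamus higher, which was so for 8.97% of all genes tested. In ret/ret animals the regional differences were -0.19 ± 0.36 (SE) for Fmo2, 0.48 ± 0.32 for Fmo1 and 0.41 ± 0.36 for Fmo5, with adjusted p-values of 0.373 for Fmo1 and 0.494 for Fmo5 in the same test.

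The neighbours of Fmo2 on chromosome 1 served as a control for a difference spread over the locus. Besides Fmo2, 6 genes that start within 500 kb of it passed the filter on low counts: Mettl13, a methyltransferase, Vamp4, a vesicle fusion protein, Myoc, which encodes myocilin, Prrc2c, Fmo1, and Prrx1, a homeobox gene of mesenchyme. Fmo4 lies in the same window and did not pass. Of the 6, none had an unadjusted p under 0.05 and none had groups that did not overlap, in cortex or in thalamus, against 3.77% and 2.32% of all genes in cortex and 3.93% and 2.73% in thalamus.

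Their log2 fold changes ran from -0.33 to 0.56 in cortex, with a median of 0.18, and from -0.27 to 0.66 in thalamus, with a median of 0.19. The median over all genes tested was 0.01 in cortex and -0.02 in thalamus. Fmo1, whose start is 44.8 kb from that of Fmo2, had 0.35 and 0.66. The next gene on the other side that was tested, Prrx1, starts 371 kb away and had 0.56 ± 0.40 (SE) in cortex and 0.19 ± 0.30 (SE) in thalamus. Myoc was the most uneven of them, from 1.61 to 75.4 CPM across libraries.

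**Figure D2:**
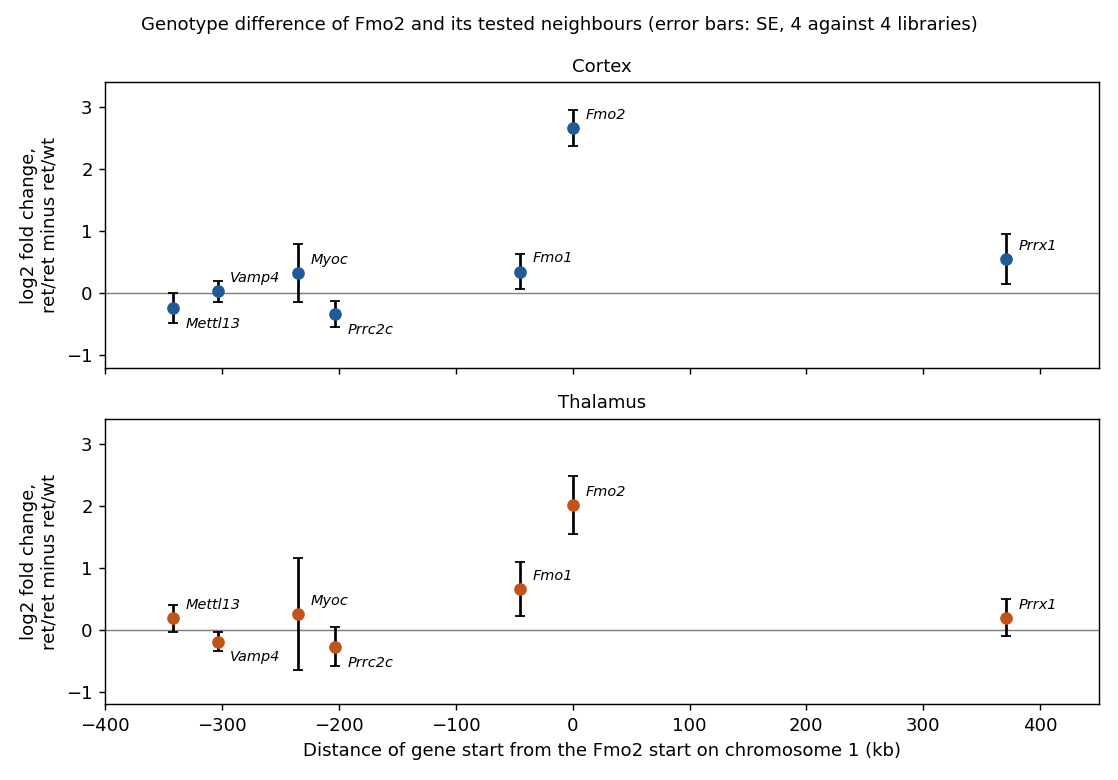
Genotype difference as log2 fold change of ret/ret over ret/wt (y axis) against distance of the gene start from that of Fmo2 in kb (x axis), cortex above and thalamus below. Points are genes and error bars are the SE from 4 against 4 libraries: Fmo2 stands at 2.66 and 2.01, and its 6 tested neighbours lie between -0.33 and 0.66.

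Other genes of the table were ranked by how closely they followed Fmo2 over the 16 libraries, as Pearson's r of log2 CPM among 12771 genes with a mean log2 CPM of at least 1. These correlations are descriptions. The 16 libraries come from 8 animals in 4 groups, so a gene that differs between genotypes scores high by that alone. The gene nearest to Fmo2 was Edn1, which encodes the vessel-constricting peptide endothelin-1, at r = 0.94. It was followed by Ctla2a (0.90), Slc16a4, a monocarboxylate transporter (0.90), Itm2a (0.90), Lpar6, a receptor for lysophosphatidic acid (0.88), and Bmx, a tyrosine kinase of arterial endothelium and bone marrow (0.86). Adgrl4, an endothelial adhesion receptor (0.84), Slc39a8, a zinc and manganese importer (0.84), Clec14a, an endothelial surface lectin (0.84), and the histone gene Hist1h2be (0.83) completed the nearest 10.

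Edn1 stood at 2.20, 2.78, 3.91 and 2.71 CPM in ret/wt cortex and 32.5, 18.4, 24.0 and 18.6 in ret/ret cortex. In thalamus it stood at 2.89, 2.55, 2.81 and 3.94 CPM in ret/wt and 21.4, 16.5, 9.07 and 12.3 in ret/ret. In both regions its genotypes did not overlap, with ret/ret higher, which was so for 1.58% of all genes in cortex and 1.7% in thalamus. Edn1 was picked for its likeness to Fmo2 over these same libraries, and earlier work on these data had called it in cortex. Its lack of overlap is thus given as a description. Within the groups the 2 genes followed each other only in part: ret/ret thalamus replicate 3 was the lowest of its group for both, whereas in ret/ret cortex replicate 3 was the lowest for Fmo2 and replicate 2 for Edn1. With the group means taken out, the r of Edn1 with Fmo2 was 0.62, the rank of 194 among the genes, and this was the highest of the nearest 10. The lowest were Slc39a8 (0.28), Clec14a (0.20) and Lpar6 (0.13). The 5 genes nearest by these residuals were Tmem86a (0.87), Atp10a (0.87), Ogfr (0.84), Fars2 (0.82) and Dus1l (0.82), none of which was among the nearest 10 above. With 1 animal left out, 1 to 3 of these 5 were kept for every animal but ret/wt replicate 2, without which all 5 were kept.

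At the other end of the ranking were 2 pericyte genes, and next to them Mapt (-0.79), L3mbtl1 (-0.78) and N4bp1 (-0.78), which are not on the pericyte list. With the summed CPM of 10 pericyte markers the r of Fmo2 was -0.44, and 0.30 with the group means taken out. Rgs5, a regulator of G protein signalling that marks brain pericytes, had the lowest r of all at -0.90 (-0.13 with the group means taken out), and Abcc9, a subunit of their potassium channels, had -0.87 (-0.54). Rgs5 stood at 63.5, 63.9, 48.8 and 62.0 CPM in ret/wt cortex and at 21.2, 13.8, 15.5 and 22.1 in ret/ret cortex. Its cortex libraries did not overlap between genotypes, in the direction opposite to Fmo2. Of all genes, 2.32% had cortex groups that did not overlap, in one direction or the other. For Rgs5 this is a description, since this ranking and earlier work on these data had picked it. Within the family, Fmo5 had an r of 0.68 with Fmo2 (rank 83) and Fmo1 of 0.52 (rank 369).

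**Figure D3:**
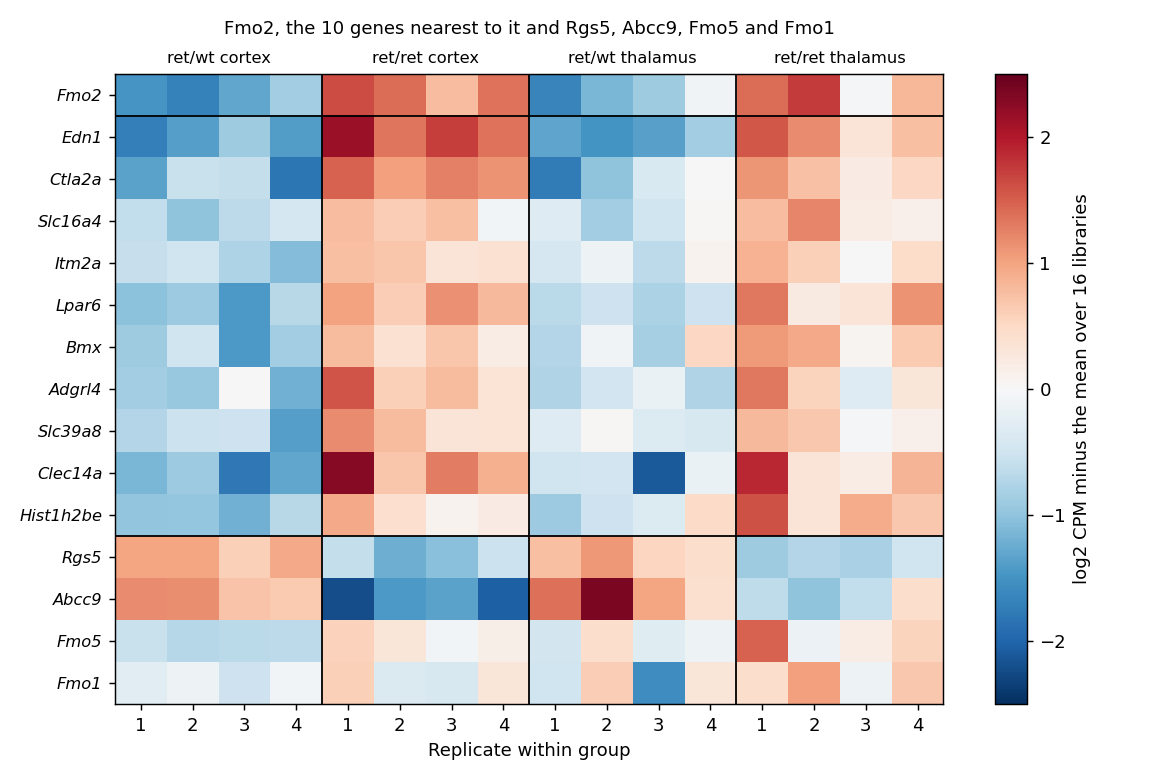
Heat map of log2 CPM minus each gene's mean over the 16 libraries (colour bar, red above and blue below the mean) for Fmo2, its 10 nearest genes, Rgs5, Abcc9, Fmo5 and Fmo1 (rows) in the 16 libraries (columns, replicates 1 to 4 of each group). Fmo2 and the 10 nearest genes are mostly blue in ret/wt and red in ret/ret libraries, Rgs5 and Abcc9 run the other way, and ret/ret thalamus replicate 3 is the palest of its group for Fmo2.

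Several of the nearest genes are known from endothelial cells, and the family was set beside the markers of that cell type. Over the 16 libraries the r of Fmo2 with the summed endothelial markers was 0.46, and with the microglial sum it was 0.55. With the group means taken out these were 0.18 and 0.21, and the r with the choroid plexus sum was 0.54, the highest of the 10 marker sums. With the group means kept, the r with the choroid plexus sum was -0.17. That sum was 1162 CPM in ret/wt cortex replicate 4, the library with the highest Fmo2 of its group. In bulk tissue a change in the number of cells of a type and a change in the RNA per cell cannot be told apart. Of 9 endothelial markers tested, none passed the test after adjustment, and at an unadjusted p under 0.05 3 were higher and 1 lower in ret/ret cortex and 1 was higher in ret/ret thalamus. Of all genes tested, 2.62% were higher and 1.14% lower by that rule in cortex, and 3.05% higher and 0.88% lower in thalamus. The median log2 fold change of the list was 0.67 in cortex and 0.45 in thalamus. Slco1a4, an organic anion transporter of the blood-brain barrier, had 1.39 ± 0.30 (SE) and Kdr, the main VEGF receptor, 1.29 ± 0.33 (SE) in cortex. These were the highest of the list, and 3 of the 9 were negative in cortex: Ly6c1 (-0.58), Cd34 (-0.13) and Flt1 (-0.11). In thalamus all 9 were positive, from 0.04 for Ly6c1 to 0.99 for Cdh5.

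The summed level of the 9 markers was 154 to 357 CPM in ret/wt cortex, 271 to 417 in ret/ret cortex, 222 to 254 in ret/wt thalamus and 200 to 472 in ret/ret thalamus. The sums overlapped between genotypes in both regions. Per 1000 CPM of endothelial markers, Fmo2 was at 10.8 ± 7.5 CPM in ret/wt cortex (SD, n = 4; range 6.16 to 21.9) and 47.4 ± 15.1 in ret/ret cortex (SD, n = 4; range 26.4 to 59.3). In thalamus it was at 14.5 ± 6.6 in ret/wt (SD, n = 4; range 8.76 to 23.7) and 43.6 ± 16.1 in ret/ret (SD, n = 4; range 30.1 to 66.5). The genotypes did not overlap on this scale in either region, of which the cortex is the one that singled Fmo2 out.

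On the same scale Fmo5 was at 17.3 ± 7.1 in ret/wt cortex and 24.1 ± 5.8 in ret/ret cortex (SD, n = 4 each), with ranges of 12.8 to 27.9 and 15.9 to 28.8 that overlapped. In thalamus Fmo5 was at 26.8 ± 6.5 and 33.9 ± 9.8 (SD, n = 4 each). Fmo1 was at 29.8 ± 15.4 in ret/wt cortex and 27.1 ± 9.8 in ret/ret cortex (SD, n = 4 each). In thalamus Fmo1 was at 33.5 ± 17.4 in ret/wt and 42.6 ± 13.9 in ret/ret (SD, n = 4 each).

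Of the pericyte markers 1 passed the test, in cortex: Rgs5, which earlier work on these data had already called there. Its pass was thus known beforehand and is given as a description. With 1 library left out, the cortex comparison called 0 to 2 genes in place of 3. Of 8 pericyte markers tested in cortex, Rgs5 passed after adjustment with a log2 fold change of -1.70 ± 0.20 (SE) and an adjusted p of 0.0410 (edgeR quasi-likelihood, Benjamini-Hochberg), and 5 including it had an unadjusted p under 0.05, all lower, against 1.14% of all genes. Vtn was the 1 of these 8 with a positive log2 fold change in cortex, at 0.20. In thalamus 0 of 10 passed and 3 had an unadjusted p under 0.05, all lower, against 0.88% of all genes. The summed level of the 10 markers was 110 to 166 CPM in ret/wt cortex and 54.9 to 122 in ret/ret cortex, and 116 to 333 and 67.6 to 229 in thalamus, so the sums overlapped in both regions. Of 9 fibroblast markers none had an unadjusted p under 0.05 in either region. The sum of 8 microglial markers was 288 to 422 CPM in ret/wt cortex, 257 to 532 in ret/ret cortex, 277 to 343 in ret/wt thalamus and 425 to 596 in ret/ret thalamus, where the genotypes did not overlap. None of the 8 passed after adjustment. At an unadjusted p under 0.05, 0 were called in cortex and 6 in thalamus, all higher, against 3.05% of all genes in thalamus. The part of endothelial cells, pericytes, microglia and choroid plexus in the levels of the members was not tested.

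The enzymes that share substrates or cofactors with the family were counted from fixed lists. Of 20 other drug and amine enzymes tested, none passed after adjustment in either region. At an unadjusted p under 0.05, 4 were higher in ret/ret cortex and 2 in ret/ret thalamus and none was lower, against 2.62% and 3.05% of all genes that were higher. The medians of the list were 0.13 and 0.24. In cortex the smallest p-values were those of Cyp2j9, a cytochrome P450, with a log2 fold change of 0.67 ± 0.21 (SE), and Ephx1, the microsomal epoxide hydrolase, with 0.55 ± 0.18 (SE). In thalamus they were those of the monoamine oxidases Maob, with 0.61 ± 0.20 (SE), and Maoa, with 0.39 ± 0.16 (SE).

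Ephx1 was the 1 of these 20 enzymes with separate cortex groups, against 1.58% of all genes with ret/ret higher. It was at 21.5, 19.2, 18.7 and 26.6 CPM in ret/wt and 36.5, 32.4, 28.0 and 27.7 in ret/ret. The gap between groups was thus narrow, and the small p for which Ephx1 was named rests on the same values. Por, the reductase that passes electrons from NADPH to cytochromes P450, had a log2 fold change of 0.04 ± 0.17 (SE) in cortex and -0.09 ± 0.19 (SE) in thalamus. Por was picked from its list for this role after its values were seen.

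Of 18 tested genes of NADPH supply and thiol redox, none passed after adjustment, and 2 in cortex and 3 in thalamus had an unadjusted p under 0.05, all higher, against 2.62% and 3.05% of all genes. The medians were 0.11 and 0.04. Hmox1, the stress-induced enzyme that breaks down heme, was at 4.10 ± 0.57 CPM in ret/wt cortex and 6.66 ± 1.38 in ret/ret cortex (SD, n = 4 each). In thalamus it was at 5.89 ± 3.24 CPM in ret/wt and 19.3 ± 12.5 in ret/ret (SD, n = 4 each), where ret/ret replicate 1 reached 37.5 CPM and the groups overlapped. Prdx1, a peroxiredoxin, had a log2 fold change of 0.67 ± 0.20 (SE) in cortex, and Cat, the catalase gene, 0.59 ± 0.24 (SE) in thalamus.

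Fmo1 makes taurine, so the genes of the route from cysteine to taurine were read as well. None of the 4 tested had an unadjusted p under 0.05 in either region, and the medians were -0.12 in cortex and -0.16 in thalamus. Cdo1, the cysteine dioxygenase that opens the route, had -0.08 ± 0.25 (SE) in cortex and -0.25 ± 0.22 (SE) in thalamus. The other tested genes had wider differences in cortex, at 0.32 for Ado, -0.17 for Slc6a6 and -0.38 for Gadl1. In thalamus Gadl1 had -0.93, Ado -0.06 and Slc6a6 0.004. Of 13 glucocorticoid-responsive genes, none passed after adjustment. At an unadjusted p under 0.05, 2 were higher in ret/ret cortex, against 2.62% of all genes. These were the metallothionein genes Mt1 and Mt2, at 0.75 ± 0.28 and 0.86 ± 0.24 (SE). By the same rule 1 was lower in ret/ret thalamus, against 0.88% of all genes. It was Fkbp5, a co-chaperone of the glucocorticoid receptor, at -0.56 ± 0.22 (SE). The medians of that list were -0.01 and -0.11.

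**Figure D4:**
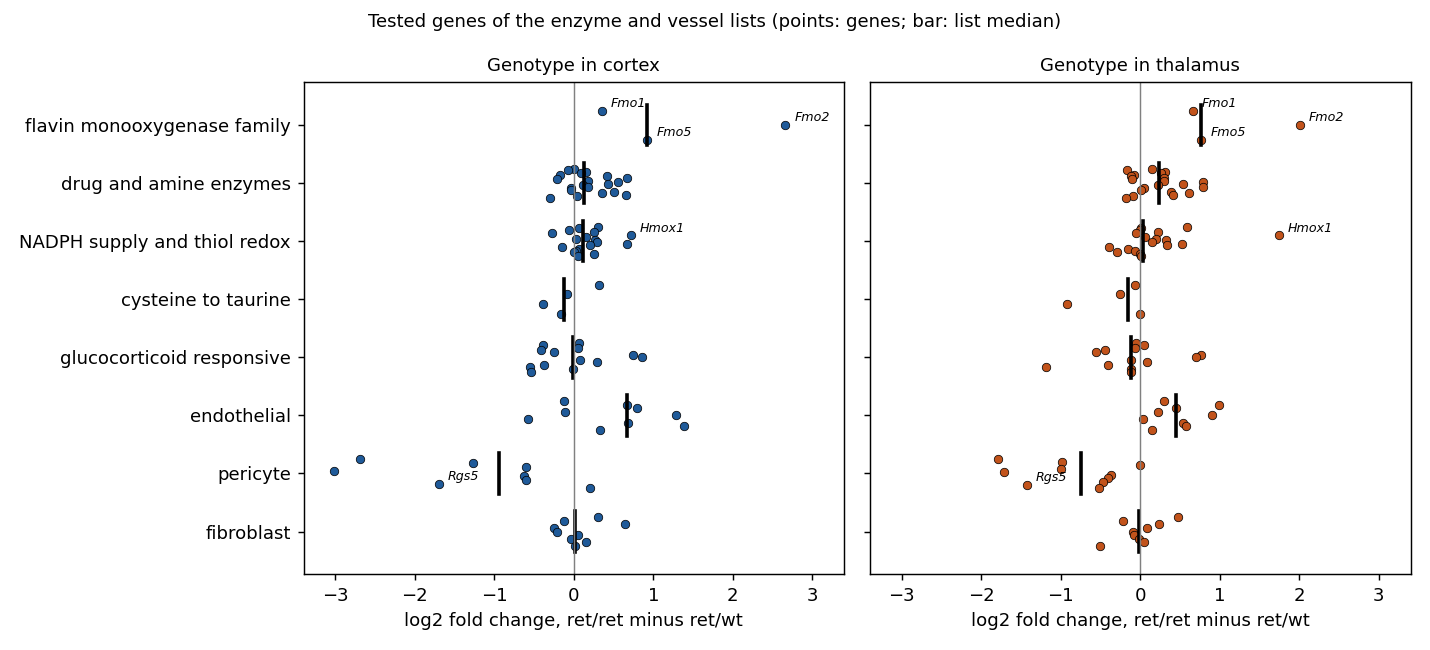
Log2 fold change of ret/ret over ret/wt (x axis) for the tested genes of 8 lists (y axis), cortex on the left and thalamus on the right. Points are genes and black bars are list medians: Fmo2 stands at 2.66 and 2.01, while the medians of the drug and amine enzymes are 0.13 and 0.24 and those of the endothelial markers 0.67 and 0.45.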

How the data were processed

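The authors deposited expected counts, reads estimated per Ensembl gene, for 16 libraries. The submitters' processing notes name kallisto 0.44.0 and GRCm38.p6, and the step from transcripts to genes is not given in the sources used here. The nonzero values were not whole (100%) and were rounded before fitting. Symbols, coordinates and exon lengths came from GENCODE M21 on GRCm38, matched for 21581 genes (99.0%), and sequences were read from its transcripts.

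Genes were kept by filterByExpr (minimum count 10, minimum total 15) and scaled by TMM, and edgeR 4.0.16 (R 4.3.3) fitted its quasi-likelihood test to the 8 libraries of each comparison, or to all 16 for the interaction. P-values were adjusted over all genes tested by Benjamini-Hochberg at 0.05. Levels of single libraries were CPM scaled over all 16. DESeq2 1.42.0 and limma 3.58.1 gave alternatives. The steps were tested on simulated data.

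The members, the lists and the alternatives were chosen with earlier results of these data known. Every member was named in every comparison, with its tested neighbours, the 10 genes nearest to Fmo2 and the 5 nearest by residuals, Edn1 and Rgs5. The plan took from each list the genes that passed after adjustment or else the 2 with the smallest p. Not all of these are given here, and some named genes, such as Por, lie outside that rule. No gene of the smooth muscle, fibroblast, astrocyte, microglial, choroid plexus, cortical and thalamic neuron and cerebellum lists is named. In cortex, 0 of 3 tested smooth muscle and 1 of 10 astrocyte genes had an unadjusted p under 0.05. So had 2 of 6 choroid plexus genes, lower in ret/ret, and 2 of 4 thalamic neuron genes, higher in ret/ret, against 3.77% of all genes (1.14% lower, 2.62% higher). In thalamus these counts were 0 of 4, 1 of 10, 0 of 8 and 0 of 5, against 3.93%. Animal identifiers in the labels pair the cortex and the thalamus library of an animal, and equal replicate numbers across genotypes are different animals. The mean correlation of residuals of libraries from the same animal was 0.058 in ret/wt and 0.115 in ret/ret. Libraries are separate animals within a group. One gene is not reported here.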

Additional observations from a re-analysis of the deposited data

Results flagged for a closer look

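Of 72 groups of 4 libraries checked, 3 held a library that stood apart from the others, and chance gives about 1 in 20. Prrx1, the neighbour of Fmo2, was at 12.4 CPM in ret/wt cortex replicate 3 against 5.27 to 6.14 in the other 3 libraries. In replicate 2 of ret/ret cortex it reached 19.0 CPM, while the remaining 3 libraries lay between 6.79 and 8.66. Both libraries are those with cerebellum markers, and the part of that tissue in Prrx1 was not tested. Slc39a8, among the genes nearest to Fmo2, was at 6.27 CPM in ret/wt thalamus replicate 2 against 4.65 to 4.92 in the others.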

How the results depend on the processing

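Fmo2 kept its direction between genotypes under all 18 alternatives in each region, at a log2 fold change of 2.54 to 2.84 in cortex and 1.71 to 2.40 in thalamus. In thalamus DESeq2 alone took it past the threshold (2.01, adjusted p 0.0105), and its adjusted p ran from 0.0105 to 1. Fmo5 and Fmo1 kept their direction between genotypes and stayed short of the threshold in both regions, with adjusted p from 0.0687 for Fmo5 in cortex with DESeq2. Cortex genes called numbered 3, against 38 with DESeq2, 7 with all 16 libraries in the fit, 1 without both animals with Y-linked reads, 0 with the replicate block and 0 to 2 with 1 library left out. In thalamus 0 genes became 37 with DESeq2 and 3 with all 16 libraries, and in the interaction 0 became 4 with DESeq2. Region genes numbered 1178 to 1797 in ret/wt and 627 to 2007 in ret/ret with 1 library left out, and in ret/ret 2591 with DESeq2 and 2564 without the animal with Y-linked reads. The cause of these shifts was not tested.

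Small differences changed sign. The interaction of Fmo1 was -0.20 without both animals with Y-linked reads and -0.016 to 0.589 with 1 animal left out (-0.016 without ret/ret replicate 2). That of Fmo5 was -0.485 to 0.0814 (0.081 without ret/wt replicate 2 and 0.040 without ret/ret replicate 2). Between regions in ret/wt, Fmo1 was -0.019 with limma-voom, -0.0058 with the replicate block and -0.126 without ret/wt thalamus replicate 2, the lowest of -0.126 to 0.469. In ret/ret, Fmo2 was -0.436 to 0.088 (0.088 without ret/ret thalamus replicate 3) and Fmo5 -0.021 to 0.639 (-0.021 without ret/ret thalamus replicate 1). With the replicate block, which pairs regions by animal, Fmo2 had an interaction of -0.71, and Fmo1 and Fmo5 stayed short of the threshold in the region comparisons and the interaction. In the genotype comparisons the block joins different animals that share only a number, and the call of Fmo2 in cortex, which singled it out, is among the 3 lost.

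Per mean transcript length the levels in ret/wt cortex, ret/ret cortex, ret/wt thalamus and ret/ret thalamus were 4.92, 6.22, 5.56 and 8.61 CPM per kb for Fmo1, 1.41, 8.86, 1.96 and 7.75 for Fmo2 and 1.83, 3.45, 2.75 and 4.56 for Fmo5. Scaled by library size alone, Fmo5 in ret/wt cortex was at 0.721 CPM per kb. Of the 10 genes nearest to Fmo2, 6 were shared with Spearman's rho, 3 with cortex libraries alone, 2 with thalamus libraries alone and 6 to 8 with 1 animal left out. Of the 5 nearest by residuals, 3, 0, 0 and 1 to 5 were shared. Counts of 26 to 62 in ret/wt cortex limit the precision of Fmo2, and Fmo4 was too low to compare.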
